A study of Mus musculus with 10 samples.

Results

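Genes used as landmarks of the trophoblast, the lineage that forms the placenta, were followed in mouse embryonic stem cells. They are Elf5, Gata2, Gata3, Tfap2a, Tfap2c, Hand1, Krt7, Krt8, Krt18 and Krt19. They were chosen by symbol from a list of 10 trophoblast transcription factors and keratins of simple epithelia, and all 10 were found among the 52636 gene identifiers of the RNA-seq tables. The cells were E14, a mouse embryonic stem cell line, either unedited (WT) or with a CTCF binding element removed (CBE-KO), CTCF being a protein that folds chromatin into loops. Both groups had been moved from medium with LIF and 2 kinase inhibitors into medium without them, with retinoic acid at a labelled 2 µM, and were sequenced after 24 h. There were 2 libraries per group, and the comparison asks how the loss of the element changed expression under retinoic acid. Whether CBE-KO is 1 clone is not given in the sources used here. Nothing says that the 2 libraries of a group came from separate cultures, so p-values measure the spread between these samples, which may be technical.

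The first fate decision of the mouse embryo separates the trophectoderm from the inner cell mass, the source of embryonic stem cells. In trophoblast, factors of the GATA and AP-2 families and the ETS factor Elf5 hold the lineage, Hand1 drives differentiation into giant cells, and the cells build a simple epithelium held by keratins. Keratin filaments form from a type II chain (Krt7, Krt8) paired with a type I chain (Krt18, Krt19). In embryonic stem cells Elf5 is silenced by DNA methylation. Several of these genes also serve elsewhere: Tfap2c in germ cells, Tfap2a in neural crest and surface ectoderm, Gata2 in blood, Hand1 in mesoderm, and Krt8 and Krt18 in most simple epithelia and in endoderm.

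Library totals were 14108038 to 15632960 counts, and 3 counts, the floor used here, corresponded to 0.192 to 0.213 CPM (counts per 1000000 of the library). CPM below carry TMM scaling, the trimmed-mean factors of edgeR. Markers of embryonic stem cells were abundant in every library: Pou5f1, the core pluripotency factor, had 11859 to 15841 counts and Nanog, another pluripotency factor, 11137 to 14352. The labelled cell type was thus visible in its markers. The Y-linked genes Ddx3y, Eif2s3y, Uty and Kdm5d had 0 to 6 counts in the WT libraries and 4 to 920 in the CBE-KO libraries. The 2 groups thus differed in Y-linked expression as well as in the element, and the contributions of the edit and of other differences between the lines cannot be told apart.

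The genes lie at 10 positions on 5 chromosomes of GRCm38 (mm10). Windows of 250 bases before to 50 after the annotated start were supplied for 7 of the 10. They are 10 windows of RefSeq build GRCm38.p6. Krt8 (chromosome 15, 101996711 to 102004342) and Krt18 (chromosome 15, 102028216 to 102032026), which encode partner chains, are neighbours separated by 23873 bases, and Krt7 (chromosome 15, 101412403 to 101427806) lies on the same chromosome. Their windows are shown because Krt8 and Krt18 are adjacent genes that moved the same way, while the difference of Krt7, a type II chain like Krt8, had the opposite sign and did not pass the test. Each sequence is written 5′ to 3′ on the gene's strand, with matches to 4 motifs in capitals: TATAAA (the box near many starts), AGATAA (for GATA factors), GCCNNNGGC (AP-2 factors) and AGGTCA (half-site of retinoid and other nuclear receptors), searched on both strands.
Krt8, chr15:102004293-102004592, minus strand: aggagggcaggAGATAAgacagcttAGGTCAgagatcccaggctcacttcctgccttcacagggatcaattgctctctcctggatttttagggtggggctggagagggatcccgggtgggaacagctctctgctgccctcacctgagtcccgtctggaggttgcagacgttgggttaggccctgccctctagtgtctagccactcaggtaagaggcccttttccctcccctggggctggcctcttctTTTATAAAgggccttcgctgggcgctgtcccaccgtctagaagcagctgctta
Krt18, chr15:102027966-102028265, plus strand: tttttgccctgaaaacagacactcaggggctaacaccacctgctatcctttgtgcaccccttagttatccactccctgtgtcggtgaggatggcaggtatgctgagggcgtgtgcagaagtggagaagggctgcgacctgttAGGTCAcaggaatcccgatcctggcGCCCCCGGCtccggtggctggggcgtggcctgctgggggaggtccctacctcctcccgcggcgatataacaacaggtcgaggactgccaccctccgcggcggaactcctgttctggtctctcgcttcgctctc
Krt7, chr15:101412153-101412452, plus strand: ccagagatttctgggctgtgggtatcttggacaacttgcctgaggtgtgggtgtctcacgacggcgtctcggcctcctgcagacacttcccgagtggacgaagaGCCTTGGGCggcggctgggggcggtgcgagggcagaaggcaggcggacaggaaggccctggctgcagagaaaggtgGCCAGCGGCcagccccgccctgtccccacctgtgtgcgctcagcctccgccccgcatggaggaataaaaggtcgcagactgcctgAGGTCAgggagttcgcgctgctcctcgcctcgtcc

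In the Krt8 window AGATAA starts at base 12, AGGTCA at base 26 and TATAAA at bases 248 and 250, the last 2 being overlapping matches on opposite strands. The Krt18 window holds AGGTCA at base 143 and GCCNNNGGC at base 168. The Krt7 window holds GCCNNNGGC at bases 105 and 181 and AGGTCA at base 266. Among all 32851 windows of the same length, 13.6% held TATAAA, 11.2% AGATAA, 16.6% GCCNNNGGC and 16.3% AGGTCA. The windows of these 3 keratins have the last of these motifs in common. Of the other members' windows, that of Gata3 held GCCNNNGGC 3 times and 1 of the 2 Gata2 windows held it once. The windows of Elf5 and Tfap2a held none of the 4 motifs. These matches describe letters in the reference sequence and were not tested as binding sites.

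Of the 10 genes, 9 had enough counts to be tested and 5 of these 9 passed an adjusted p of 0.05 in edgeR's quasi-likelihood test, beside 43.1% of all 16005 tested genes. Gata2, Tfap2a, Krt8 and Krt18 were higher in CBE-KO and Tfap2c was lower, against 21.6% of all tested genes higher and 21.5% lower. All 9 passed the count filter on their WT libraries alone. Their median log2 fold change was 0.20, beside 0.01 over all tested genes, and the median absolute log2 fold change was 0.54, beside 0.28. The value of 0.54 is that of Krt7, which had 14 to 24 counts and did not pass. Over all genes this median depended on the count filter and was 0.52 without a filter. In all 9 members the 2 groups did not overlap, as was so for 70.4% of all tested genes. Tfap2c is the member whose call held in DESeq2, which called 28.6% of all genes. The 4 rises did not pass there, nor without WT replicate 2, when 38.1% of all genes passed and Tfap2c was the 1 member among them. Without WT replicate 1, CBE-KO replicate 1 or CBE-KO replicate 2 there were 5, 3 and 3 members, beside 36.8%, 33% and 33.7% of all genes. Tfap2c alone passed at an adjusted p under 0.01, as did 30.7% of all genes, and Gata2 alone when the log2 fold change also had to reach 1 in size, as did 8.64%. In bulk RNA, fewer cells of a type and less RNA per cell cannot be told apart.

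**Figure D1:**
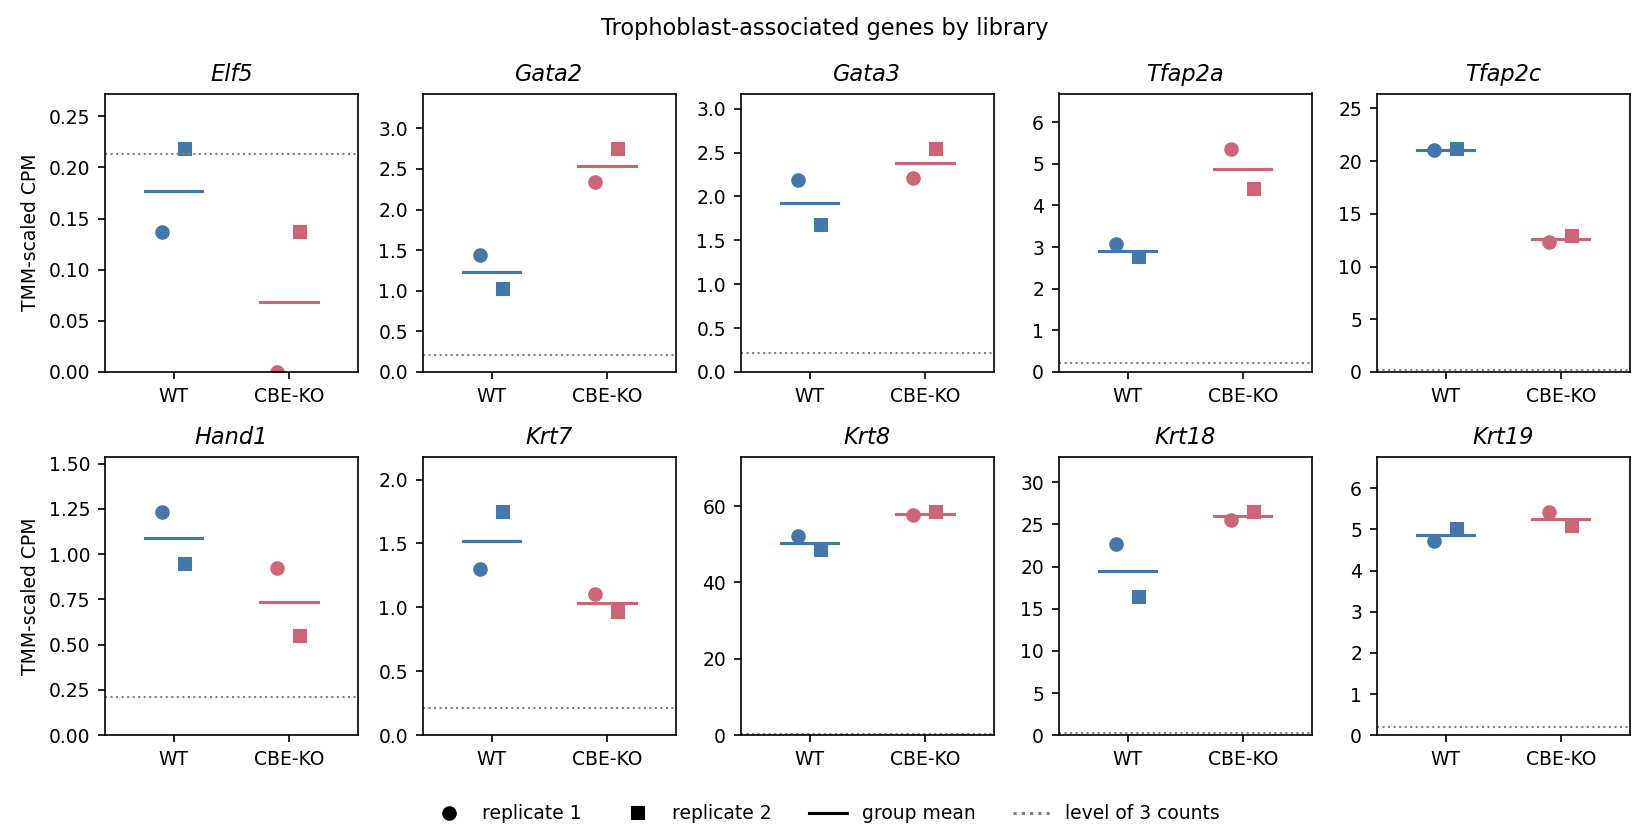
TMM-scaled CPM (linear axis from 0, a separate scale per panel) of the 10 genes in the 4 libraries; circles are replicate 1, squares replicate 2, short lines group means, and the dotted line is the highest level that 3 counts correspond to in a library. Tfap2c shows tight pairs at mean levels of 21.1 CPM for WT and 12.6 CPM for CBE-KO, Krt18 has a WT pair that is spread from 16.3 to 22.6 CPM, and Elf5 lies around the dotted line.

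Among the transcription factors, Tfap2c (ENSMUSG00000028640, chromosome 2, 172545678 to 172558622) showed the clearest difference. It encodes AP-2γ, which is needed for trophoblast maintenance and also acts in germ cell specification. Tfap2c measured 21.0 and 21.1 CPM in the WT libraries and 12.4 and 12.9 CPM in the CBE-KO libraries. Both CBE-KO libraries were below both WT libraries, and replicates lay close together in each group. The log2 fold change was -0.74 ± 0.11 (SE, the standard error; adjusted p in edgeR = 5.39e-05), so the WT mean was 1.67 times the CBE-KO mean. DESeq2 gave -0.75 (adjusted p = 0.000157). Over the other fits of all 4 libraries the adjusted p ranged from 5.90e-08 to 0.000157, and leaving out any 1 library gave log2 fold changes from -0.77 to -0.71 (edgeR adjusted p 1.53e-06 to 1.82e-05).

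Tfap2a (ENSMUSG00000021359, chromosome 13, 40713802 to 40738238) encodes AP-2α, the family member best known from neural crest and surface ectoderm. It measured 3.08 and 2.76 CPM in the WT libraries and 5.35 and 4.39 CPM in those of CBE-KO, from 38 to 87 counts per library. The CBE-KO libraries were both higher, and replicate 1 of CBE-KO was the highest. The log2 fold change was 0.74 ± 0.23 (SE; adjusted p in edgeR = 0.0163), opposite in direction to Tfap2c and equal in size at 2 decimals. The call was lost in DESeq2 (0.73, adjusted p = 0.123; range over the fits of all 4 libraries 0.00556 to 0.123), without WT replicate 2 (0.66, edgeR adjusted p = 0.0526) and without CBE-KO replicate 1 (0.59, edgeR adjusted p = 0.170). The lncRNA gene Gm26688, which overlaps Tfap2a, had 0 to 3 counts.

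Gata2 (ENSMUSG00000015053, chromosome 6, 88193891 to 88207032) encodes a zinc-finger factor of trophoblast giant cells and of blood progenitors. It had 21 and 14 counts in the WT libraries and 38 and 40 in those of CBE-KO, or 1.44, 1.02, 2.34 and 2.74 CPM. Both CBE-KO libraries were above both WT libraries. At a log2 fold change of 1.04 ± 0.33 (SE; adjusted p in edgeR = 0.0177) it was the member with the largest change. It did not pass in DESeq2 (1.04, adjusted p = 0.132; range over the fits of all 4 libraries 0.00741 to 0.132), without WT replicate 2 (0.81, edgeR adjusted p = 0.108) or without CBE-KO replicate 2 (0.92, edgeR adjusted p = 0.122). The lncRNA gene Gm38708 overlapping Gata2 had at most 1 count.

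Gata3 (ENSMUSG00000015619, chromosome 2, 9857078 to 9887953) acts beside Cdx2 in the trophectoderm. It measured 2.19 and 1.67 CPM in the WT libraries and 2.21 and 2.54 CPM in those of CBE-KO. WT replicate 1 and CBE-KO replicate 1 were nearly level, with 32 and 36 counts. Its log2 fold change, 0.29 ± 0.30 (SE; adjusted p in edgeR = 0.468), was no larger than its standard error. The overlapping lncRNA genes 4930412O13Rik and 9230102O04Rik had at most 2 counts.

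Hand1 (ENSMUSG00000037335, chromosome 11, 57828713 to 57832147), a basic helix-loop-helix factor required for giant cells and also for heart and lateral mesoderm, had 18 and 13 counts in the WT libraries and 15 and 8 in those of CBE-KO. The groups were separated by little, since WT replicate 2 measured 0.944 CPM and CBE-KO replicate 1 0.922 CPM. The log2 fold change was -0.55 ± 0.46 (SE; adjusted p in edgeR = 0.361). Elf5 (ENSMUSG00000027186, chromosome 2, 103412098 to 103450989), the ETS factor that gates entry to the trophoblast lineage, had 2 and 3 counts in the WT libraries and 0 and 2 in those of CBE-KO. All 4 libraries were at or below the floor of 3 counts, so no fold change is given and a difference was not detectable at this depth.

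**Figure D2:**
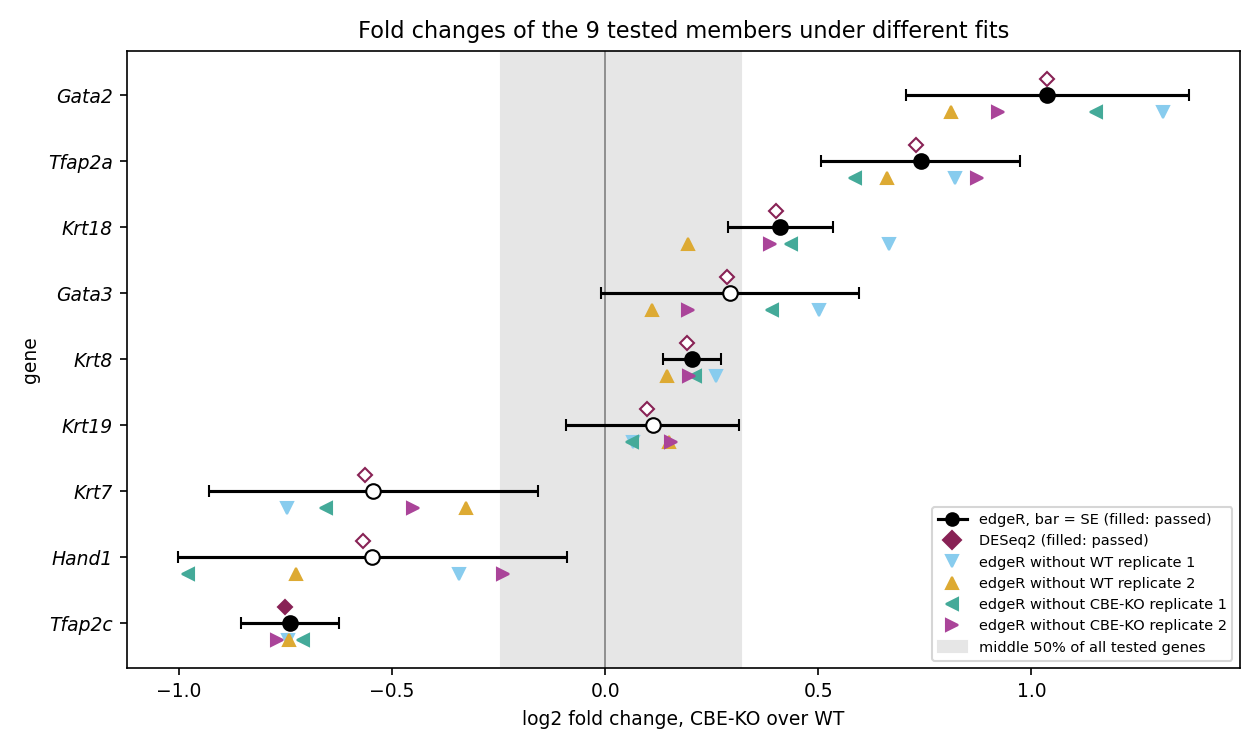
Log2 fold change of CBE-KO over WT (horizontal axis) for the 9 tested genes: black circles are edgeR with bars of 1 SE, diamonds DESeq2 (filled symbols passed an adjusted p of 0.05 in either), and triangles edgeR with 1 library left out. Tfap2c stays between -0.77 and -0.71 in the fits shown, whereas Krt18 drops to 0.19 without WT replicate 2, inside the grey band that holds the middle of all tested genes.

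The keratins showed smaller differences. Krt8 (ENSMUSG00000049382), the main type II chain of simple epithelia, measured 52.3 and 48.4 CPM in the WT libraries and 57.7 and 58.3 CPM in those of CBE-KO. The CBE-KO libraries were higher, with 850 to 939 counts each. The log2 fold change was 0.20 ± 0.07 (SE; adjusted p in edgeR = 0.0230), a ratio of 1.15. Krt8 lost its call in DESeq2 (0.19, adjusted p = 0.165; range over the fits of all 4 libraries 0.000955 to 0.165) and without WT replicate 2 (0.15), CBE-KO replicate 1 (0.21) or CBE-KO replicate 2 (0.20), with edgeR adjusted p of 0.139, 0.0800 and 0.0998.

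Krt18 (ENSMUSG00000023043), its type I partner, measured 22.6 and 16.3 CPM in the WT libraries and 25.5 and 26.4 CPM in those of CBE-KO. WT replicate 2 was the low library, and WT replicate 1 lay nearer to the CBE-KO libraries than to it. The log2 fold change was 0.41 ± 0.12 (SE; adjusted p in edgeR = 0.0116), a ratio of 1.33. It was 0.19 without WT replicate 2 (edgeR adjusted p = 0.242) and 0.67 without WT replicate 1. DESeq2 gave 0.40 (adjusted p = 0.0635; range over the fits of all 4 libraries 0.000338 to 0.0635).

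The proportion of the 2 partner genes differed between the WT libraries, and this difference was not tested. The ratio of Krt8 to Krt18 counts was 2.31 in WT replicate 1, 2.96 in WT replicate 2, and 2.26 and 2.21 in the CBE-KO libraries. The 3 libraries other than WT replicate 2 were thus close together. Over the 4 libraries, with log2 CPM centred on each gene's mean, Krt18 ranked 5943 of 16004 genes by Euclidean distance to Krt8, at 0.34. The nearest to Krt8 were Smox, Gpi1 and Heatr5a, at distances of 0.016 to 0.018. The nearest to Krt18 were Rps12-ps4, Stap2 and Slc47a2, at 0.059 to 0.069, and Krt8 ranked 1149. The annotated pseudogene Krt8-ps had 0 to 2 counts, and how reads shared between copies were counted is not given in the sources used here.

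Krt7 (ENSMUSG00000023039), the type II chain typical of trophoblast and ductal epithelia, had 19 and 24 counts in the WT libraries and 18 and 14 in those of CBE-KO. These were 1.30 and 1.74 CPM against 1.11 and 0.960 CPM, which gave a log2 fold change of -0.54 ± 0.39 (SE; adjusted p in edgeR = 0.277). Krt19 (ENSMUSG00000020911, chromosome 11, 100140810 to 100145926), a type I chain, measured 4.72 and 5.01 CPM in the WT libraries and 5.41 and 5.08 CPM in those of CBE-KO. For Krt19 the log2 fold change was 0.11 ± 0.20 (SE; adjusted p in edgeR = 0.696). Neither difference exceeded the spread between replicates by the test, although the groups did not overlap for either gene. All 9 tested members kept the sign of their fold change under each scaling tried, including library totals alone, which moved the median of all genes to 0.11.

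A wider list of 24 trophoblast and placenta genes was set beside the members. Of these, 13 were tested and 5 passed, 2 higher and 3 lower, which is 38.5% of those tested beside 43.1% of all genes. Gcm1, the factor for syncytiotrophoblast formation, fell from 48 and 62 counts in the WT libraries to 16 and 11 in those of CBE-KO, which gave a log2 fold change of -2.14 ± 0.33 (SE; adjusted p in edgeR = 4.87e-05). Ascl2, needed for spongiotrophoblast, fell from 8.11 ± 0.744 to 3.33 ± 1.03 CPM (SD, n = 2 libraries each), which gave a log2 fold change of -1.27 ± 0.22 (SE; adjusted p in edgeR = 0.000182). Tead4, the TEAD factor that acts upstream of Cdx2 in trophectoderm, fell by 0.68 on the log2 scale (edgeR adjusted p = 6.65e-05). These 3 falls also passed in DESeq2 (adjusted p = 0.000141, 0.000393 and 0.000264). Like Tfap2c they were lower in both CBE-KO libraries.

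The 2 rises of this list were those of Esx1 and Fgfr2, the latter named after its values were seen. Fgfr2, the receptor through which FGF4 sustains trophoblast stem cells, rose from 168 and 144 counts in the WT libraries to 248 and 249 (log2 fold change 0.56, edgeR adjusted p = 0.00250). Esx1, a placental homeobox gene, rose by 0.67 (edgeR adjusted p = 0.0352), but its call was lost in DESeq2 (0.66, adjusted p = 0.156). Without WT replicate 2 its log2 fold change was 0.32 (edgeR adjusted p = 0.333), and it also missed the threshold without CBE-KO replicate 1 (0.0702) or CBE-KO replicate 2 (0.0592). Cdx2 and Eomes, the defining factors of trophoblast stem cells, were named outside the rule. Cdx2 had 20, 16, 10 and 15 counts in the 4 libraries (log2 fold change -0.63 ± 0.43, SE; adjusted p in edgeR = 0.258). Eomes measured 12.5 ± 0.265 CPM in WT cells and 13.2 ± 0.357 CPM in CBE-KO cells (SD, n = 2 libraries each; log2 fold change 0.09, edgeR adjusted p = 0.633). Several markers of differentiated placenta had few counts or none, while Gcm1 had 11 to 62, Esx1 36 to 93, Ascl2 38 to 119 and Dlx3 62 to 74. Tpbpa, Prl3d1, Prl3b1 and Synb had 0 counts in every library, and 8 of the 24 genes had at most 3 counts in any library. Syna, a syncytiotrophoblast envelope gene, was tested at 14 and 24 counts in the WT libraries and 11 and 26 in those of CBE-KO (log2 fold change -0.15, edgeR adjusted p = 0.828). Plac1, Rhox6 and Rhox9 had 0 counts in both WT libraries and 1 to 5 in those of CBE-KO, too few to be tested.

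**Figure D3:**
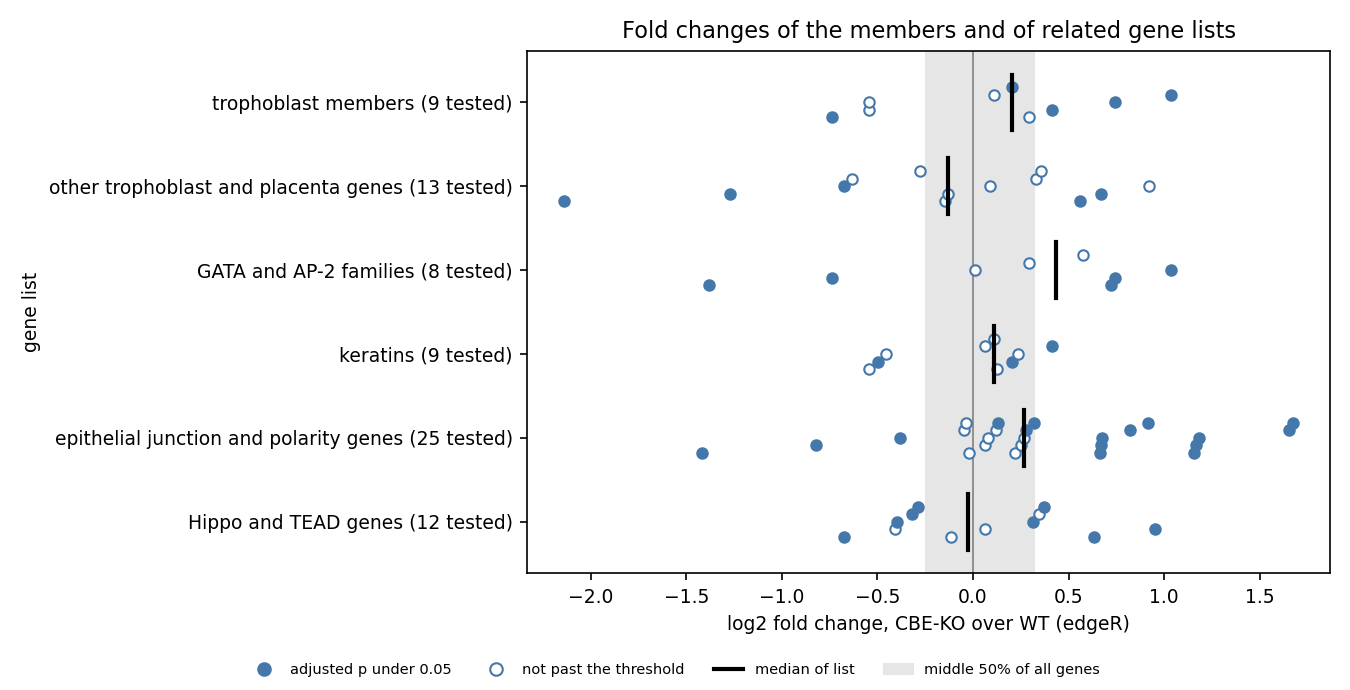
Log2 fold change of CBE-KO over WT (edgeR, horizontal axis) of each tested gene in the members and 5 related lists; filled points passed an adjusted p of 0.05, black bars are list medians and the grey band holds the middle of all tested genes. The members' median is 0.20 with points on both sides of 0, while the epithelial list has 13 filled points above 0 and 3 below.

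The families of the members were compared next. Of 11 GATA and AP-2 genes, 4 of which are members, 8 were tested and 5 passed, 3 higher and 2 lower, which is 62.5% of those tested beside 43.1% of all genes. Beside Gata2 and Tfap2a, Gata4, a factor of primitive endoderm and heart, was higher, from 7.76 ± 1.11 to 12.8 ± 0.712 CPM (SD, n = 2 libraries each; log2 fold change 0.72 ± 0.16, SE; adjusted p in edgeR = 0.00112). Beside Tfap2c, Gata1, the erythroid GATA factor, was lower (-1.38 ± 0.46, SE; adjusted p in edgeR = 0.0225). Gata1 rests on 6 to 24 counts and missed the threshold in DESeq2 (-1.42, adjusted p = 0.142), without WT replicate 2 (-1.07, edgeR adjusted p = 0.237) or without CBE-KO replicate 2 (-1.09, edgeR adjusted p = 0.177). The count of 5 fell to 2 in DESeq2 and without WT replicate 2, and to 3 without CBE-KO replicate 2. Tfap2b and Tfap2d had 0 counts in every library.

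Of 17 keratins, including the 4 members, 9 were tested and 3 passed: Krt8 and Krt18 were higher and Krt42, a type I keratin, was lower. That is 33.3% of those tested, below the 43.1% of all genes. Krt42 went from 13.1 ± 0.209 to 9.27 ± 0.761 CPM (SD, n = 2 libraries each; log2 fold change -0.50 ± 0.14, SE; adjusted p in edgeR = 0.00954). It missed the threshold in DESeq2 (-0.51, adjusted p = 0.0592) and without CBE-KO replicate 1 (-0.41, edgeR adjusted p = 0.0681). DESeq2 called 0 of the 9, beside 28.6% of all genes, with 2 at an unadjusted p under 0.05. Without WT replicate 2, Krt42 was the 1 keratin that passed, and Krt18 was the 1 that passed without CBE-KO replicate 1. The stratified-epithelium chains Krt5 and Krt14 had 2 to 14 counts and Krt6a had 0, but Krt10 had 65 to 107 and Krt17 34 to 51. Neither Krt10 nor Krt17 passed (edgeR adjusted p = 0.374 and 0.742).

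Genes of epithelial junctions and polarity, which share with keratins a place in simple epithelia, differed in larger steps. All 25 were tested and 16 passed (64.0%), 13 higher and 3 lower, beside 21.6% and 21.5% of all genes, with a median log2 fold change of 0.27. Dsp encodes desmoplakin, which anchors keratin filaments to desmosomes. It rose from 13.9 ± 2.33 to 44.2 ± 2.55 CPM (SD, n = 2 libraries each), which gave a log2 fold change of 1.67 ± 0.10 (SE; adjusted p in edgeR = 1.27e-09). Ocln, the tight-junction protein occludin, rose 3.14-fold and Crb3, an apical polarity protein, 2.27-fold (edgeR adjusted p = 1.37e-05 and 0.000622). Grhl2, a transcription factor of epithelial genes, fell by 1.42 on the log2 scale (edgeR adjusted p = 2.64e-05). These 4 calls held in DESeq2 and without any 1 library.

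Of 12 Hippo and TEAD genes, the pathway that controls Tead4 and thereby Cdx2 and Gata3 in the early embryo, all were tested and 8 passed (66.7%, beside 43.1% of all genes), 4 higher and 4 lower, with a median log2 fold change of -0.03. Amot, an angiomotin that sequesters YAP, rose from 11.8 ± 0.00663 to 22.8 ± 1.04 CPM (SD, n = 2 libraries each; log2 fold change 0.95, edgeR adjusted p = 3.58e-06). Wwtr1, the co-activator TAZ, rose by 0.63 (edgeR adjusted p = 7.61e-06). Tead4 and Amotl1 were lower, the latter by a log2 fold change of -0.40 (edgeR adjusted p = 0.000373). These calls held in every fit tried.

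**Figure D4:**
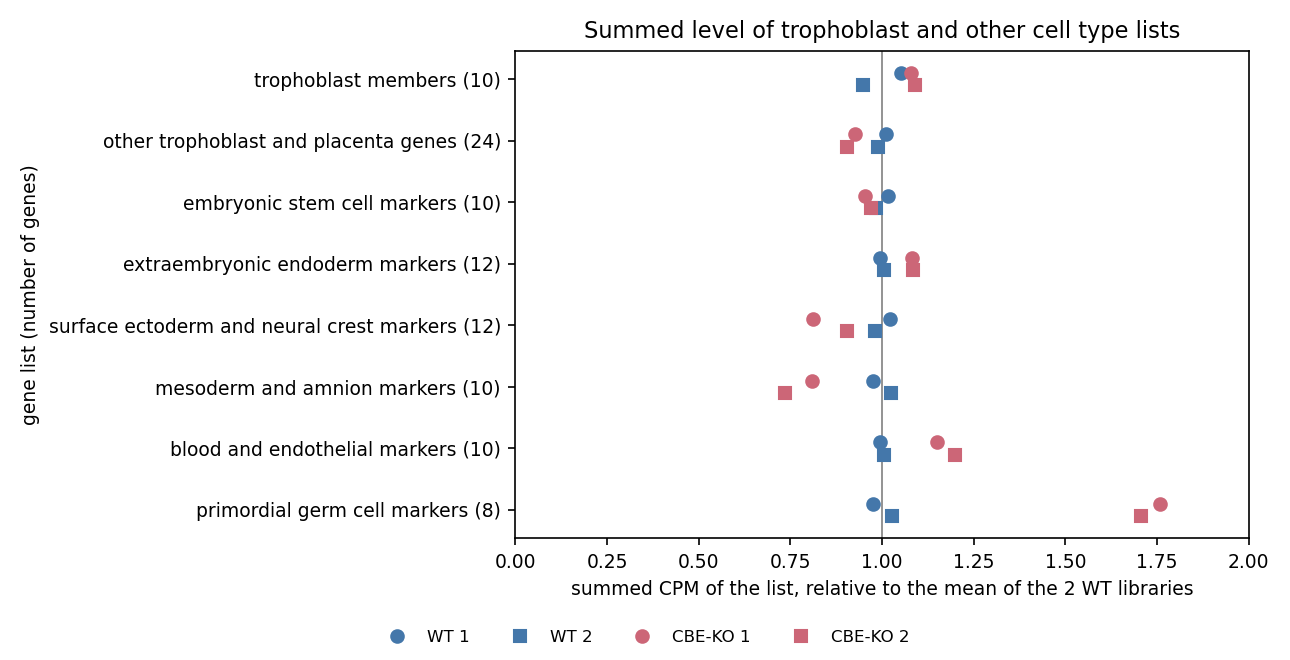
Summed CPM of each list in each library, divided by the mean of the 2 WT libraries (horizontal axis, linear from 0), for the members, the wider trophoblast list and lists of markers of other cell types. The members' CBE-KO libraries lie just above WT replicate 1 (113 and 114 against 110 CPM). Krt8 makes up 49.7% of the members' sum, and the sum of the other 9 members, not drawn, overlaps between the groups. The germ cell list, in which only Kit and Dazl passed singly, is well above WT in both CBE-KO libraries. In several lists 1 gene makes up most of the sum, 96.0% in the blood and endothelial list.

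Since several members are also expressed in other cell types, marker lists of those types were summed in each library. Sums without the most abundant gene of a list were added after the values were seen. The 10 members together measured 110 and 99.2 CPM in the WT libraries and 113 and 114 CPM in those of CBE-KO. Krt8 made up 49.7% of this sum. The other 9 members came to 57.7 and 50.8 CPM in WT and 55.2 and 55.7 CPM in CBE-KO, so the groups overlapped without Krt8. The 24 wider trophoblast genes measured 135 and 132 CPM in WT against 124 and 121 CPM in CBE-KO. Without Ets2, 41.0% of that sum, the other 23 came to 78.7 and 78.8 CPM against 71.8 and 72.7 CPM. The 10 embryonic stem cell markers summed to 8101 to 8357 CPM in the WT libraries and 7853 to 7987 CPM in those of CBE-KO. Singly, 9 of the 10 passed (90%, beside 43.1% of all tested genes), 3 higher and 6 lower. Dppa5a, which made up 47.9% of this sum, rose (3548 and 3434 against 4196 and 4297 CPM), and the other 9 together went from 4667 to 4809 CPM in WT to 3657 to 3691 CPM in CBE-KO. Utf1, Sall4, Klf4 and Zfp42 had the largest of these changes, with log2 fold changes of -1.67, -0.94, -0.49 and -0.42 (edgeR adjusted p up to 1.46e-06). Pou5f1, which represses trophoblast genes, was lower as well (-0.33 ± 0.05, SE; adjusted p in edgeR = 4.71e-05), as was Sox2 (-0.35, edgeR adjusted p = 1.77e-05). Nanog (0.15) and Tfcp2l1 (0.16) were higher (edgeR adjusted p = 0.0107 and 0.0272), and Esrrb did not pass (-0.04, edgeR adjusted p = 0.504). The part of these markers in the members' changes was not tested.

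Beside Tfap2c, the 8 primordial germ cell markers summed to 170 to 179 CPM in the WT libraries and 297 to 306 CPM in those of CBE-KO. Of 7 tested, 2 passed (28.6%, below the 43.1% of all tested genes), both higher. Those were Kit (log2 fold change 0.98) and Dazl (1.77), with edgeR adjusted p of 2.87e-10 and 4.70e-11. Kit made up 55.6% of the sum, and the other 7 were at 82.5 to 87.8 CPM in WT and 124 to 129 CPM in CBE-KO. Among those 7, Dazl alone went from 15.0 and 16.5 CPM in WT to 54.4 and 52.8 CPM in CBE-KO. Prdm14 (0.04), Nanos3 (0.27), Dnd1 (-0.09) and Ddx4 (0.12) did not pass (edgeR adjusted p 0.327 to 0.782), nor did Prdm1 (0.76, edgeR adjusted p = 0.0514). Dppa3, a defining germ cell marker, had 6 to 10 counts. Beside Krt8 and Krt18, the 12 extraembryonic endoderm markers, Gata4 among them, summed to 404 to 410 CPM in the WT libraries and 440 to 441 CPM in those of CBE-KO. Without Sparc, 48.3% of this sum, the other 11 came to 193 to 201 CPM in WT and 240.3 to 242 CPM in CBE-KO. Of 11 tested, 6 passed (54.5%, beside 43.1% of all tested genes). All 6 were higher, beside 21.6% of all tested genes. Sox7 (0.81), Dab2 (0.77), Gata4 (0.72) and Cubn (0.70) had the largest changes. Gata6 (0.0087), Sox17 (0.20), Pdgfra (-0.04), Foxa2 (-0.08) and Sparc (-0.08) did not pass (edgeR adjusted p 0.212 to 0.935). Dab2 and Cubn missed the threshold in DESeq2 (adjusted p = 0.0548 and 0.108) and without CBE-KO replicate 1 (0.63 and 0.58, edgeR adjusted p = 0.0816 and 0.130). Thbd, a parietal endoderm marker, had 0 to 3 counts. The part of these cell types in the members' changes was not tested.

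Beside Tfap2a, the 12 surface ectoderm and neural crest markers summed to 60.1 to 62.6 CPM in the WT libraries and 49.8 to 55.6 CPM in those of CBE-KO. Of 7 tested, 4 passed (57.1%, beside 43.1% of all tested genes), 3 higher and 1 lower. Msx1 (1.20), Snai2 (1.16) and Msx2 (0.63) rose and Foxd3 fell (-0.85). Foxd3 alone made up 57.3% of the sum, and without it the direction turned: the other 11 summed to 19.2 to 19.6 CPM in WT and 28.5 to 30.1 CPM in CBE-KO. Snai2 lost its call in DESeq2 (adjusted p = 0.190), without WT replicate 1 (0.78, edgeR adjusted p = 0.249) and without CBE-KO replicate 1 (0.95, edgeR adjusted p = 0.237). Sox9 (0.44), Sox10 (-0.76) and Krt14 (-0.45) did not pass (edgeR adjusted p 0.132 to 0.589). Dlx5 had 1 and 0 counts in the WT libraries and 13 and 4 in those of CBE-KO, too few to be tested. Tfap2b was at 0 in every library, Pax3 had 0 to 3 counts and Trp63 0 to 6. The part of these cell types in the Tfap2a difference was not tested.

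Beside Gata2, the 10 blood and endothelial markers summed to 173 to 175 CPM in the WT libraries and 199 to 208 CPM in those of CBE-KO. This sum was 96.0% Pecam1, and the other 9 came to 6.02 to 6.97 CPM in WT and 8.67 to 8.71 CPM in CBE-KO. Among those 9, Runx1 alone went from 3.28 and 1.89 CPM in WT to 4.55 and 4.53 CPM in CBE-KO. Of 5 tested, 3 passed (60%, beside 43.1% of all tested genes): Pecam1 (0.22) and Runx1 (0.80) were higher and Gata1 was lower. Runx1 missed the threshold in DESeq2 (adjusted p = 0.121), without WT replicate 2 (0.46, edgeR adjusted p = 0.199) and without CBE-KO replicate 1 (0.80, edgeR adjusted p = 0.0576). Lmo2 (0.69) and Klf1 (0.32) did not pass (edgeR adjusted p = 0.245 and 0.593). The globin genes Hbb-bh1 and Hba-x, defining markers of primitive red cells, were at 0 in every library. Beside Hand1, the 10 mesoderm and amnion markers summed to 29.9 to 31.4 CPM in the WT libraries and 22.5 to 24.8 CPM in those of CBE-KO. Of 6 tested, 3 passed (50%, beside 43.1% of all tested genes). Isl1 (1.71) and Kdr (1.49) were higher and Bmp4 (-0.67) was lower. Bmp4 made up 76.8% of the sum, and without it the direction turned, with the other 9 at 4.92 to 5.08 CPM in WT and 7.20 to 7.99 CPM in CBE-KO. In DESeq2 neither Isl1 nor Kdr passed (adjusted p = 0.0568 and 0.163). Without CBE-KO replicate 1 the log2 fold change of Isl1 was 0.95 (edgeR adjusted p = 0.329), and Kdr missed the threshold without WT replicate 1, WT replicate 2 or CBE-KO replicate 2 (edgeR adjusted p = 0.115, 0.0908 and 0.287). Postn was at 0 in every library and Foxf1 had at most 2 counts. The part of these cell types in the values of Gata2 and Hand1 was not tested.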

How the data were processed

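RNA-seq of 4 libraries (2 WT, 2 CBE-KO) was used; 6 further samples, of Capture-C, were not used here. The deposited values are raw read counts per Ensembl gene identifier, 1 table per library, with no normalization, as the values show. Per the submitters' processing notes, the tools were HISAT2 2.1.0, HTSeq 0.9.1, DESeq2 1.18.1 and Bowtie2 2.3.1 and the build was mm10; their roles, the annotation release and the use of strand are not given in the sources used here. Reads of overlapping genes on opposite strands can therefore not be told apart.

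Symbols came from the supplied gene name table (52403 of 52636 identifiers matched), and positions and start windows from RefSeq GRCm38.p6, the same build as mm10. Genes passing edgeR's filterByExpr (minimum count 10) were scaled by TMM and tested in edgeR 4.0.16 (R 4.3.3; glmQLFit, glmQLFTest, two-sided, no covariate). P-values were adjusted by Benjamini-Hochberg across 16005 genes, with a threshold of 0.05. Errors are SD over 2 libraries or the SE of the log2 fold change. Replicates differed by more than counting noise (chi-square per degree of freedom 2.67 and 2.23). Counting floors cover counting error only.

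Named genes were all 10 members, up to 4 per other list ranked by absolute log2 fold change, among genes that passed and reached 1 CPM in the higher group, RefSeq genes that overlap a member or share its base name (Gm32915, overlapping Hand1, was not matched to an identifier), the 3 nearest to Krt8 and to Krt18, and 4 Y-linked genes; Fgfr2, Cdx2, Eomes, Pou5f1 and Nanog, and genes at or near 0 counts, were added after their values were seen. Further genes of the lists were also added after their values were seen and were not followed singly under the alternatives. The members and lists were chosen with earlier results of these data known. Alternatives were DESeq2 1.42.0, 3 other scalings, 2 other filters, the replicate block alone and with upper-quartile scaling, a threshold of 0.01, a minimum absolute log2 fold change of 1, and leaving out each library. Scripts were tested on simulated counts.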

Additional observations from a re-analysis of the deposited data

How the results depend on the processing

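The members' count of 5 changed genes (4 higher, 1 lower) was the same under the 3 other scalings, both filters and the replicate block. It was 1 in DESeq2 and 1 at an adjusted p under 0.01, Tfap2c both times, and 1 with a minimum absolute log2 fold change of 1, which was Gata2. Leaving out 1 library gave 1 to 5 members; the lone sample of a group is then assumed to vary like the other group. In DESeq2 the counts were 2 for the GATA and AP-2 list, 0 for keratins and 4577 for all genes. At an adjusted p under 0.01 they were 2 for GATA and AP-2 and 1 for keratins. With the minimum fold change they were 2 for the wider trophoblast list, 2 for GATA and AP-2, 0 for keratins (3 of 9 at an unadjusted edgeR p under 0.05), 6 for epithelial genes, 0 for Hippo and TEAD (10 of 12 at an unadjusted edgeR p under 0.05, 7 calls in DESeq2) and 1383 for all genes. Leaving out 1 library gave 4 to 5, 2 to 5, 1 to 3, 13 to 14 and 7 to 8 for those 5 lists and 5492 to 6420 for all genes. Of all genes called, 50.2% were higher with TMM scaling and 67.0% with library totals alone. In the fit with a replicate block, 7027 genes and the same number of members, 5, were called, and no named gene changed its call; deviations of same-numbered libraries had a correlation of 0.035, and the labels do not say that the numbers mark a shared batch. No sign changed among the 49 tested named genes in 585 comparisons of a gene with its value under an alternative, and 39 of these, in 14 genes, lost the call. At 0.192 to 0.213 CPM for 3 counts, Elf5 and 8 genes of the wider trophoblast list were below what these libraries could compare.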
